A study of Mus musculus with 36 samples.

Results

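The B cell receptor and identity genes are 9 genes that mature B lymphocytes express: Cd79a, Cd79b, Ms4a1, Pax5, Blk, Cr2, Cd22, Cxcr5 and Faim3, given here under its current symbol Fcmr. They were measured in RNA of whole mouse lung by every probe set to which the annotation of the Affymetrix mouse genome array gives 1 of these symbols and no other. That rule found 12 of the 45037 probe sets tested, which cover 9 of the 18193 genes named in this way. There were 2 probe sets each for Ms4a1, Pax5 and Cd22, called the first and the second below by their number on the array, and 1 for each other gene. No filter on low values was applied, so all 12 entered every comparison.

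The study used male mice of 3 genotypes, 7 to 13 weeks old, which breathed filtered air or ozone at 0.3 ppm. Ozone lasted 6 hr, 24 hr or 48 hr. Each of the 12 resulting groups held 3 mice, and left-lung RNA of every mouse went on its own array. WT mice were B6129SF1/J hybrids. Notch3-/- mice carried the Notch3tm1Grid allele and Notch4-/- mice the Notch4tm1Grid allele on a mixed background that was not this hybrid, so a knockout line differed from WT in the deleted gene and in its mixed background, and the 2 cannot be told apart. Each genotype had 1 air group, to which all its ozone groups were compared. A level is a log2 value set against the probe set's own median over the 36 mice, so 1 unit is a doubling, and levels of different genes cannot be ranked or called detected.

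The labels held for the targeted genes, with 1 exception. The difference of Notch3-/- from WT mice over all exposures was -2.32 (SE 0.08) and -3.94 (SE 0.12) on the 2 Notch3 probe sets. On 1 of the 3 Notch4 probe sets the difference of Notch4-/- from WT mice was -3.75 (SE 0.16), and on the others it was -0.74 and -0.08. On the first of these the air-exposed Notch4-/- replicates 1, 2 and 3 stood at -1.97, -1.40 and -3.69, and the ozone-exposed ones between -4.31 and -3.42. Where leaving out replicates 1 and 2 ended a call or moved a count, the value without them is given.

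A B cell recognises antigen with a surface immunoglobulin that has no signalling tail of its own. It signals through the paired chains that Cd79a and Cd79b encode, which are phosphorylated by Src-family kinases such as Blk. Cr2, the complement receptor CD21, lowers the threshold for that signal, and Cd22, a lectin that binds sialic acid, raises it. Pax5 is the transcription factor that commits lymphoid progenitors to the B lineage. Ms4a1 encodes CD20, Cxcr5 the receptor that draws B cells and follicular helper T cells to the chemokine CXCL13, and Fcmr the Fc receptor for IgM. In lung these cells lie in the circulation, in the tissue and in bronchus-associated lymphoid clusters.

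The start regions of these genes are shown as a description of their letters. Whether they have a part in how the genes varied from mouse to mouse was not tested. The RefSeq table used here (GRCm38.p6) holds 5 of the 9: Cd79a (chr7:24897247-24897546, plus strand), Cd22 (chr7:30878979-30879278, minus strand), Cr2 (chr1:195176670-195176969, minus strand), Fcmr (chr1:130865527-130865826, plus strand) and Pax5 (chr4:44710645-44710944, minus strand). Each runs from 250 bases before to 50 bases after the start, on the strand of the gene. Capitals mark an E box (CAGGTG, the kind of site that E proteins bind), an EBF1 core (CCCNNGGG) or an ETS site (AGGAAG), found on either strand. The 4 printed hold every kind of motif found, and Pax5 holds none.
Cd79a: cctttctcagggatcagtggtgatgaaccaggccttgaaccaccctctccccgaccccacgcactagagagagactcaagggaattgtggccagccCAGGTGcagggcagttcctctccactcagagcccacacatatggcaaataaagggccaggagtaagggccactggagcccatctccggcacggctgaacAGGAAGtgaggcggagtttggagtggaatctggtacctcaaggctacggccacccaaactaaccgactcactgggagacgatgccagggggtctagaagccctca
Cd22: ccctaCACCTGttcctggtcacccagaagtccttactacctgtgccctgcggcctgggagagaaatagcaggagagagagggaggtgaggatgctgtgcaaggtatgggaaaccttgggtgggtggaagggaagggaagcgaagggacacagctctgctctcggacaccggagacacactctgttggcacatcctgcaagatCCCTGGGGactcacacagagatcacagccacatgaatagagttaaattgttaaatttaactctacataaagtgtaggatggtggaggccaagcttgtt
Fcmr: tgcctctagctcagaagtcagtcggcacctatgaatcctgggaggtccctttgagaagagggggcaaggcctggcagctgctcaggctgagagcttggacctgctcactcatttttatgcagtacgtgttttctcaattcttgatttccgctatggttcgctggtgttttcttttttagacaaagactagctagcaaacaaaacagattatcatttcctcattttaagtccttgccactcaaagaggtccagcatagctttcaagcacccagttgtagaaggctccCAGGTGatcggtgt
Pax5: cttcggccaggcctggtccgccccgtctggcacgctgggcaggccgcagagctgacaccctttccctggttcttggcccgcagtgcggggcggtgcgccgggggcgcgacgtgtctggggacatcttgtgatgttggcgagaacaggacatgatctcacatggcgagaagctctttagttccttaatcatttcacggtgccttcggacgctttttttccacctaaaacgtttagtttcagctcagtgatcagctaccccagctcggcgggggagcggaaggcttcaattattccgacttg
The E box began 154 bases before the start in Cd79a, 245 bases before it in Cd22 and 88 bases before it in Cr2, and at base 37 after the start in Fcmr. It was thus in 4 of the 5 windows, Pax5 being without a match, and in 20.2% of all 32851 windows of the table. The EBF1 core was in Cd22, 48 bases before the start, and in 13.7% of all windows. The ETS site was in Cd79a, 55 bases before the start, and in 35.4%. The octamer ATGCAAAT was in none of the 5 and in 1.74% of all windows. None of the matches overlapped another, and with 5 windows these shares describe letters only.

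Levels of these genes differed widely between mice of one group. The SD within groups was 0.34 to 0.69 for the 10 probe sets other than those of Pax5, against a median of 0.17 over all probe sets, which places them above 91.2% to 99.0% of all probe sets. Over the 36 mice Ms4a1 spanned 7.18-fold on its first probe set and 9.96-fold on its second. Cd79b spanned 6.61-fold, Cxcr5 and Fcmr 5.48-fold each, and Cd79a, the narrowest of these genes, 2.83-fold. The 2 Pax5 probe sets had SDs of 0.14 and 0.19 and spanned 1.47-fold and 1.73-fold.

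Cd79b, the signalling chain, shows the pattern. In WT mice its level was -0.27, 0.29 and -0.07 after air, -0.80, -1.25 and 0.34 after 6 hr of ozone, -1.03, -0.01 and -0.13 after 24 hr, and -0.17, -0.67 and 0.62 after 48 hr. In Notch3-/- mice it was -0.08, -0.05 and 0.38 after air, -0.50, 0.42 and -0.20 after 6 hr, -0.63, -0.63 and 0.52 after 24 hr, and 0.06, 0.01 and 0.24 after 48 hr. In Notch4-/- mice it was -0.30, 0.07 and 1.47 after air, 0.43, 0.42 and 0.80 after 6 hr, -0.30, 0.08 and -0.34 after 24 hr, and 0.54, 0.88 and 0.24 after 48 hr. Every ozone group overlapped the air group of its genotype. Values of 3 WT mice, replicates 1 and 2 after 6 hr and replicate 1 after 24 hr, were the lowest of all 36. Notch4-/- replicate 3 after air was the highest of all.

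Most of the other genes singled out the same mice, with exceptions. Cd79a was lowest in Notch3-/- replicate 2 after 24 hr (-0.71), and Cxcr5 was highest in Notch4-/- replicate 2 after 6 hr (0.85). A mean level of the members was taken in each mouse, with each gene first averaged over its probe sets. This mean was lowest in WT replicate 2 after 6 hr (-1.06), WT replicate 1 after 24 hr (-0.86), WT replicate 2 after 48 hr (-0.60) and WT replicate 1 after 6 hr (-0.56). It was highest in Notch4-/- replicate 3 after air (0.89) and Notch4-/- replicate 3 after 6 hr (0.52). Ms4a1, the CD20 gene, was -1.35 on the first probe set and -1.78 on the second in WT replicate 2 after 6 hr, and 1.49 and 1.54 in Notch4-/- replicate 3 after air. The array medians of all 36 mice lay between -0.03 and 0.03.

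**Figure D1:**
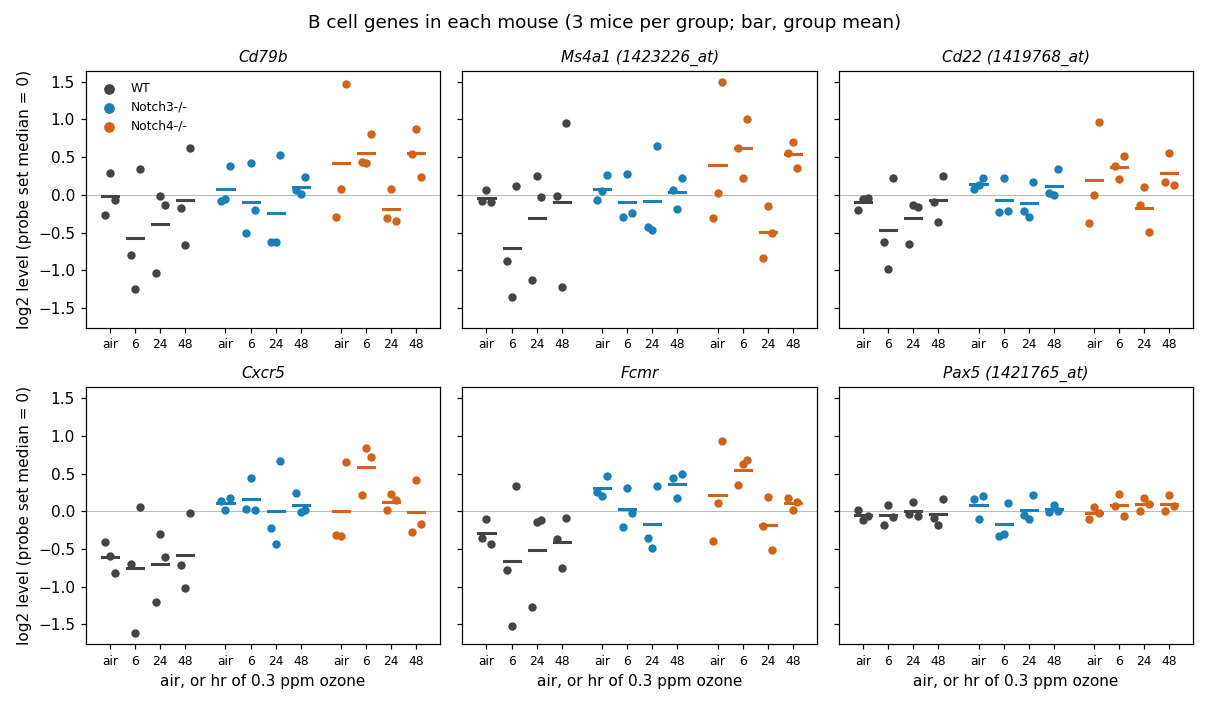
Level of Cd79b, Ms4a1, Cd22, Cxcr5, Fcmr and Pax5 (1 probe set each) in each of the 36 mice, as log2 relative to the probe set's median (vertical axis), by genotype and exposure (horizontal axis: air, or hours of ozone). Points are mice and bars are means of 3 mice. WT replicate 2 after 6 hr is lowest for all genes but Pax5. Notch4-/- replicate 3 after air is highest for all but Cxcr5 and Pax5. The Cxcr5 points of WT mice lie at or below 0.06.

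The genes varied together across mice, with Pax5 as the exception. Among the 45 pairs of probe sets that leave out Pax5, Pearson's r over the 36 mice ran from 0.52 to 0.97 (median 0.80). After subtraction of each group's mean it ran from 0.61 to 0.96 (median 0.85), so the genes also varied together within groups. The highest pair was Cd79b with the second Ms4a1 probe set. For the 21 pairs that hold a Pax5 probe set, r ran from -0.20 to 0.31 (median 0.15), and it was -0.02 between the 2 Pax5 probe sets. Against the mean of the other 8 genes, r was 0.96 for the first Cd22 probe set, 0.96 for Cd79b, 0.92 for Fcmr, 0.80 for Cxcr5, and 0.28 and 0.06 for the 2 Pax5 probe sets. These correlations share arrays and normalization and are given as a description. Since values are centred, whether the Pax5 probe sets were at background cannot be read.

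**Figure D2:**
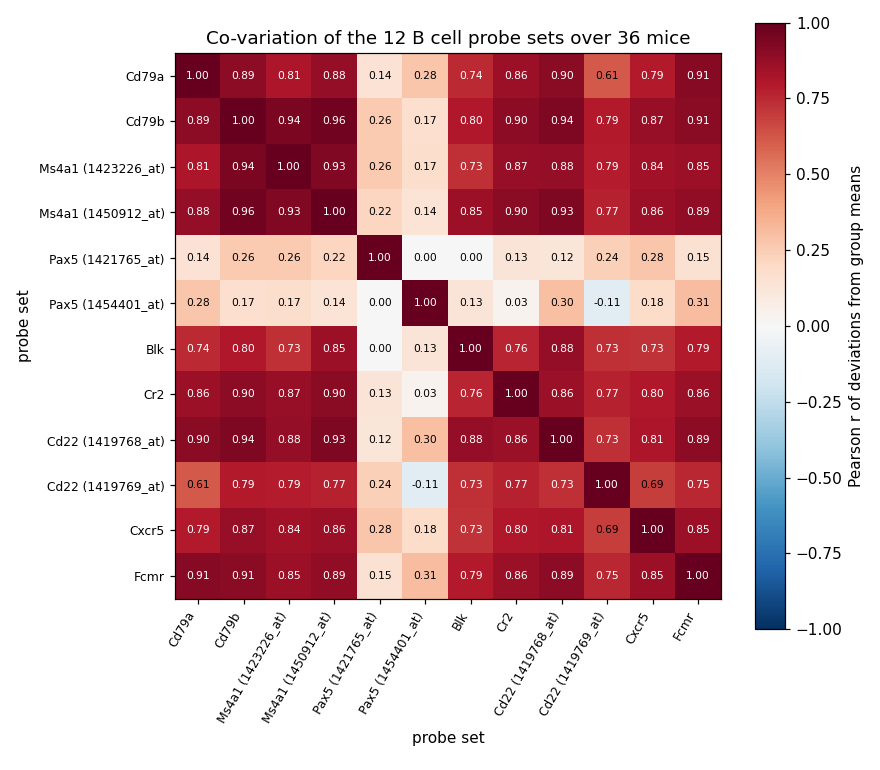
Pearson's r between the 12 probe sets over 36 mice, each mouse taken as its deviation from its group mean (colour and printed value). All pairs without Pax5 lie between 0.61 and 0.96, and the rows of Pax5 lie between -0.11 and 0.31.

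Genes outside the 9 that followed them most closely were largely B cell genes. Of 34933 other probe sets with a single symbol, 53 had r over 0.8 with the mean of the members, where the median was -0.02. The 10 highest genes were Tnfrsf13c (0.96), which encodes the receptor for the survival factor BAFF, Bank1 (0.96), a scaffold of B cell receptor signalling, the immunoglobulin heavy chain segment Ighv14-2 (0.96), Ly6d (0.96), Fcrla (0.94), Tlr1 (0.93), Fcrl1 (0.92), the transcription factor Spib (0.92), Fcer2a (0.91), which encodes the IgE receptor CD23, and Gimap7 (0.91). The members thus followed other markers of the B lineage, Pax5 apart. In bulk lung RNA, fewer B cells and less of these RNAs per B cell cannot be told apart.

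Lists of other genes, summarised as the mean over their measured genes in each mouse, followed the members to different degrees. The r with the mean of the members was 0.96 for other B cell surface genes, 0.87 for partners of the B cell receptor, 0.66 for B cell transcription factors and 0.76 for follicular dendritic cell genes, a list that itself contains Cr2. It was 0.48 for plasma cell genes and 0.22 for immunoglobulin genes. It was 0.74 for NK cell genes, 0.67 for plasmacytoid dendritic cell genes, 0.42 for neutrophil genes, 0.31 for T cell genes, 0.32 for thymocyte genes, 0.36 for lymphoid stroma and survival factors, 0.16 for skeletal muscle genes and -0.04 for alveolar macrophage genes. Within groups r was 0.81 for the T cell list, 0.82 for follicular dendritic cell genes, 0.80 for plasmacytoid dendritic cell genes and 0.79 for B cell transcription factors. For NK cell genes it was 0.67, lower than over all mice. Some lists share genes with the other B cell surface genes: Ly6d is also on the plasmacytoid dendritic cell list, Ltb on the stroma list and Cd2 on the T cell list. The immunoglobulin value rests on a single probe set for each gene. Another probe set of Iglv1, a gene of that list, had r of 0.88, and Igkv8-30, outside the list, had 0.89. Whether variation in other leukocytes has a part in the spread of the B cell genes was not tested.

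The first comparison asked whether ozone altered these genes within a genotype. None of the 108 tests of a member passed (limma, Benjamini-Hochberg adjusted p from 0.29 upward), and 1 had an unadjusted p under 0.05, the first Pax5 probe set in Notch3-/- mice at 6 hr (-0.26, SE 0.12). Of all probe sets, 0% passed in WT mice at 6 hr, 0.104% at 24 hr and 1.89% at 48 hr. In Notch3-/- mice 0.16%, 2.72% and 2.46% passed, and in Notch4-/- mice 0.00666%, 1.39% and 1.75%. The differences from air ran from -0.99 to 0.59. At 6 hr 11 of the 12 were below 0 in WT mice (median -0.36) and in Notch3-/- mice (median -0.18), and 10 were above 0 in Notch4-/- mice (median 0.20). At 24 hr the medians were -0.22, -0.26 and -0.30, and at 48 hr -0.01, -0.04 and 0.09, where the median over all probe sets lay between -0.05 and 0.02 throughout. The median SE of a member's difference was 0.30, against 0.14 over all probe sets.

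Blk, the Src-family kinase, was the member whose ozone mice did not overlap the air mice. In WT mice its level was 0.01, 0.08 and 0.02 after air and -0.74, -0.06 and -0.13 after 24 hr, and in Notch3-/- mice it was -0.01, 0.23 and 0.33 after air and -0.05, -0.18 and -0.02 after 24 hr. All 3 ozone mice were lower in both, as were those of 11.4% and 15.2% of all probe sets in these comparisons. In Notch4-/- mice the groups overlapped, with -0.03, 0.06 and 0.93 after air and 0.17, 0.16 and -0.69 after 24 hr.

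Averaged over the genotypes, which gives 9 ozone mice against 9 air mice, none of the 36 tests passed, while 2.9% of all probe sets passed at 6 hr, 5.29% at 24 hr and 10.7% at 48 hr. The lowest values came at 24 hr, when 11 of 12 differences were below 0 (median -0.26). The second Ms4a1 probe set was -0.72 (SE 0.30, adjusted p = 0.166), Blk -0.35 (SE 0.17, adjusted p = 0.226), Cd79b -0.44 (SE 0.23, adjusted p = 0.279) and Fcmr -0.36 (SE 0.20, adjusted p = 0.293). The first 2 were those with an unadjusted p under 0.05, which 9556 of all 45037 probe sets had at 24 hr. Most members varied together within groups, so the signs of the 12 differences are not independent. At 48 hr the differences ran from -0.18 to 0.10 (median 0.02), and the 95% interval for Cd79b was -0.44 to 0.51. When Notch4-/- air replicates 1 and 2 were left out, Cd79b, Ms4a1 and Cd22 passed as lower at 24 hr, both within Notch4-/- mice and over the genotypes. The Notch4-/- air group then is the single mouse that was highest for these genes, and is assumed to vary like the other groups.

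**Figure D3:**
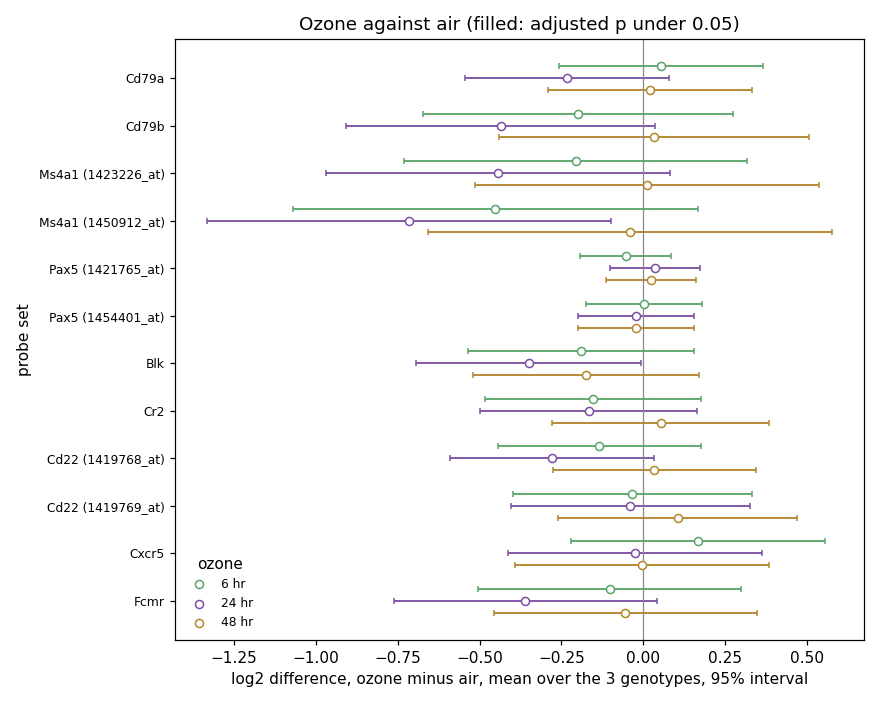
Difference between ozone and air, averaged over the 3 genotypes, for the 12 probe sets at 6, 24 and 48 hr (horizontal axis, log2, with 95% intervals; filled points would mark adjusted p under 0.05). No point is filled, and 11 of the 12 points at 24 hr lie below 0.

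Of the genes that act around B cells, few passed for ozone. Averaged over the genotypes, Cxcl13, the chemokine that CXCR5 recognises, was higher than in air at 48 hr by 0.89 (SE 0.21, adjusted p = 0.0049). Its levels at 48 hr were -0.46, 0.06 and -0.25 in WT mice, 0.66, 0.51 and 0.45 in Notch3-/- mice and 1.51, 3.38 and 1.09 in Notch4-/- mice. After air they were -0.57, 0.67 and -0.37 in WT, -0.31, -0.06 and -0.36 in Notch3-/- and 0.12, 0.26 and -0.44 in Notch4-/- mice. Both knockout groups at 48 hr lay above their air mice, and the WT groups overlapped. The share of all probe sets with such a separation is not given here, so this only describes the values.

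The survival factor BAFF (Tnfsf13b) was higher at 24 hr by 0.51 (SE 0.14, adjusted p = 0.025), and did not pass when any of 4 single mice was omitted. These were WT air replicate 2 (adjusted p = 0.0669), Notch4-/- air replicate 3 (0.0506), Notch3-/- replicate 2 at 24 hr (0.0517) and Notch4-/- replicate 3 at 24 hr (0.0588). Of the 8 measured genes of the lymphoid stroma and survival list, 2 passed as higher at 24 hr, Tnfsf13b and the lymphotoxin receptor Ltbr, and 1 at 48 hr, Cxcl13, where 5.29% and 10.7% of all probe sets passed, so the share at 48 hr was near that of all probe sets. The Ltbr call (0.22, SE 0.07, adjusted p = 0.0458) held in 16 of 36 runs with 1 array left out. Of the 7 follicular dendritic cell genes, Cxcl13 and Clu (0.54, SE 0.09, adjusted p = 0.000137) were higher and Mfge8 (-0.22, SE 0.06, adjusted p = 0.0157) was lower at 48 hr. Without Notch4-/- air replicates 1 and 2 the Mfge8 difference was -0.19 and did not pass (adjusted p = 0.099). Clu and Mfge8 are expressed by many other lung cells.

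Among the 12 B cell transcription factors, 3 were lower at 48 hr, and 0 were higher, where 10.7% of all probe sets passed in either direction. They were Ebf1 (-0.36, SE 0.10, adjusted p = 0.0153), which specifies the B lineage with Pax5, Bach2 (-0.36, SE 0.09, adjusted p = 0.0074), which delays plasma cell differentiation, and Ikzf1 (-0.21, SE 0.06, adjusted p = 0.028), a regulator of all lymphocytes. Ikzf1 was also lower at 6 hr (-0.32, SE 0.06, adjusted p = 0.0077). Without Notch4-/- air replicates 1 and 2 the Ebf1 difference was -0.34 and did not pass (adjusted p = 0.0698). As a mean over its probe sets, Ikzf1 did not pass at 48 hr (-0.07, adjusted p = 0.474) or at 6 hr (-0.16, adjusted p = 0.0922), and the 48 hr call held in 30 of 36 runs with 1 array left out. Bach2 did not pass as such a mean either (-0.23, adjusted p = 0.125). Ebf1 and Bach2 are not confined to B cells in lung. Of 16 partners of the receptor, Dapp1, an adaptor, was higher at 48 hr (0.51, SE 0.11, adjusted p = 0.0018) and Rasgrp3, an activator of Ras, was lower (-0.45, SE 0.10, adjusted p = 0.0035), so 2 of 16 passed against 10.7% of all probe sets. As a mean over its probe sets Dapp1 was 0.21 and did not pass (adjusted p = 0.0802). The medians were -0.12 for the transcription factors and 0.06 for the partners, against -0.01 for all probe sets. Of the 19 other surface genes 1, Ly86, passed as lower at 24 hr (-0.42, SE 0.12, adjusted p = 0.0427), a call that held in 22 of 36 runs with 1 array left out, and 0 passed at 6 or 48 hr. Of 10 plasma cell genes 1, Sdc1, passed as higher at 24 hr (0.19, held in 25 of 36 such runs) and at 48 hr (0.35, SE 0.05, adjusted p = 3.14e-05), and Sdc1 also marks epithelium. None of the 7 immunoglobulin genes, each by a single probe set, passed at any time.

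Genes of other cell types passed over the same hours. Averaged over the genotypes, 2.9% of all probe sets passed at 6 hr, 5.29% at 24 hr and 10.7% at 48 hr. At 48 hr 5 of 17 T cell genes were lower (median -0.25), among them Bcl11b (-0.40) and Il7r (-0.38), 5 of 9 alveolar macrophage genes were higher (median 0.34), and 2 of 10 neutrophil genes were higher. None of 8 NK genes passed at any time, and none of 8 muscle genes passed. At 48 hr 1 of 8 plasmacytoid dendritic cell genes and 1 of 9 thymocyte genes, Cd8a, was lower, near the share of all probe sets. At 24 hr none of the T cell, NK, plasmacytoid dendritic cell or neutrophil genes passed.

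The second comparison set the knockout lines against WT. In air none of the 36 tests of a member passed (adjusted p from 0.66 upward), where 0.486% of all probe sets passed for Notch3-/- against WT, 0.482% for Notch4-/- against WT and 0.0866% between the knockout lines. Cxcr5 in Notch3-/- mice was the only member there with an unadjusted p under 0.05, with a difference of 0.71 (SE 0.33). All 12 differences of Notch3-/- from WT in air were above 0 (median 0.14), as were 11 of 12 for Notch4-/- (median 0.29). These signs are not independent, since most members varied together within groups.

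Taken over air and the 3 ozone exposures, which sets 12 mice against 12, Cxcr5 and Fcmr were higher in both knockout lines, and the other members did not pass. These are 2 of 12 probe sets in each line, where 5.68% of all probe sets passed for Notch3-/- (3.28% higher) and 5.76% for Notch4-/- (2.87% higher). Both comparisons use the same WT mice, so they are not independent of each other. No member passed between Notch3-/- and Notch4-/- mice, where 1.09% of all probe sets did.

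Cxcr5 carried the largest difference of the members in both lines. In WT mice its level was -0.41, -0.59 and -0.81 after air, -0.70, -1.61 and 0.06 after 6 hr of ozone, -1.20, -0.30 and -0.60 after 24 hr, and -0.71, -1.02 and -0.02 after 48 hr. In Notch3-/- mice it was 0.14, 0.02 and 0.17 after air, 0.04, 0.44 and 0.02 after 6 hr, -0.23, -0.43 and 0.67 after 24 hr, and 0.25, -0.01 and 0.02 after 48 hr. In Notch4-/- mice it was -0.32, -0.32 and 0.65 after air, 0.22, 0.85 and 0.72 after 6 hr, 0.01, 0.22 and 0.15 after 24 hr, and -0.27, 0.42 and -0.16 after 48 hr. The medians over 12 mice were -0.65 in WT, 0.03 in Notch3-/- and 0.18 in Notch4-/- mice. Cxcr5 was higher without overlap in Notch3-/- than in WT mice after air and 48 hr, and in Notch4-/- than in WT mice after air, 6 hr and 24 hr. Over all 12 mice of each, no member was without overlap, as 0.209% of all probe sets were for Notch3-/- and 0.138% for Notch4-/- mice.

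Counted over the 12 probe sets, 3 were higher without overlap in Notch3-/- mice after air, 0 at 6 hr, 0 at 24 hr and 2 at 48 hr, where 8.76%, 5.86%, 11.5% and 9.24% of all probe sets were. In Notch4-/- mice they were 1 after air, 7 at 6 hr, 2 at 24 hr and 1 at 48 hr, where 4.11%, 7.39%, 11.3% and 6.19% were. The 7 at 6 hr were Cd79b, both Ms4a1 probe sets, Blk, Cr2, Cxcr5 and Fcmr.

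The Cxcr5 difference from WT was 0.75 (SE 0.16, 1.68-fold, adjusted p = 0.0035) in Notch3-/- mice and 0.84 (SE 0.16, 1.79-fold, adjusted p = 0.0013) in Notch4-/- mice. It passed when any 1 of the 36 arrays was left out, at 0.64 to 0.85 and 0.73 to 0.94. Without Notch4-/- air replicates 1 and 2 the Notch4-/- difference was 1.001, but that air group is then replicate 3 alone, the highest of its 3 mice for Cxcr5. At single exposures it did not pass in comparisons added after the data were seen. The nearest was Notch4-/- against WT at 6 hr, at 1.34 (SE 0.33, 2.54-fold, adjusted p = 0.0504), where 0.642% of all probe sets passed.

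Fcmr, the IgM receptor, differed less firmly. In WT mice its level was -0.35, -0.10 and -0.44 after air, -0.78, -1.52 and 0.33 after 6 hr, -1.27, -0.14 and -0.11 after 24 hr, and -0.37, -0.75 and -0.09 after 48 hr. In Notch3-/- mice it was 0.26, 0.20 and 0.47 after air, -0.20, 0.31 and -0.02 after 6 hr, -0.35, -0.48 and 0.34 after 24 hr, and 0.44, 0.18 and 0.49 after 48 hr. In Notch4-/- mice it was -0.39, 0.11 and 0.93 after air, 0.35, 0.63 and 0.69 after 6 hr, -0.20, 0.19 and -0.51 after 24 hr, and 0.17, 0.02 and 0.12 after 48 hr. The WT and Notch3-/- mice did not overlap after air or 48 hr and did at 6 and 24 hr. WT and Notch4-/- mice did not overlap at 6 and 48 hr.

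The Fcmr difference from WT was 0.60 (SE 0.17, 1.52-fold, adjusted p = 0.030) in Notch3-/- mice and 0.64 (SE 0.17, 1.56-fold, adjusted p = 0.020) in Notch4-/- mice. The Notch3-/- difference did not pass when 1 of 9 arrays was left out: WT air replicate 3 (adjusted p = 0.0532), WT 6 hr replicates 1 (0.053) and 2 (0.0657), WT 24 hr replicate 1 (0.0725), WT 48 hr replicate 2 (0.0583), Notch3-/- air replicate 3 (0.0532), Notch3-/- 6 hr replicate 2 (0.0586), Notch3-/- 24 hr replicate 3 (0.0704) or Notch3-/- 48 hr replicate 1 (0.0501). The Notch4-/- difference did not pass without WT 24 hr replicate 1 (adjusted p = 0.0504). Without Notch4-/- air replicates 1 and 2 it was 0.82, but that air group is then replicate 3 alone, the mouse with the highest mean of the members.

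The other members were mostly higher in the knockout lines but did not pass. In Notch4-/- mice all 12 differences were above 0 (median 0.40), and 9 had an unadjusted p under 0.05. Of all 45037 probe sets 8324 had such a p in this comparison. The first Cd22 probe set was 0.40 (SE 0.13, adjusted p = 0.0675), Cd79b 0.60 (SE 0.20, adjusted p = 0.0785), Cr2 0.40 (SE 0.14, adjusted p = 0.0958), the second Ms4a1 probe set 0.72 (SE 0.26, adjusted p = 0.106) and Blk 0.40 (SE 0.15, adjusted p = 0.115). In Notch3-/- mice 11 of 12 were above 0 (median 0.24), and 2 had an unadjusted p under 0.05, the 2 that passed. There 7280 of all 45037 probe sets had such a p. The probe sets other than those of Pax5 varied together within groups (median r 0.85). The 12 signs and p-values of a line are therefore not independent. Cd79a was 0.02 (SE 0.13) in Notch3-/- and 0.27 (SE 0.13, adjusted p = 0.262) in Notch4-/- mice. The 2 Pax5 probe sets were between 0.01 and 0.10 in both lines, with 95% intervals inside -0.14 to 0.22. The number of calls, counted over the 12 probe sets and the 3 comparisons, was 4 here and rested on single mice. It was 10 without WT 6 hr replicate 3, 8 without WT 48 hr replicate 3, 7 without Notch4-/- air replicate 1 and 2 without WT 24 hr replicate 1. It also rose without Notch4-/- air replicates 1 and 2 together, but that air group is then replicate 3 alone, the mouse with the highest mean of the members.

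**Figure D4:**
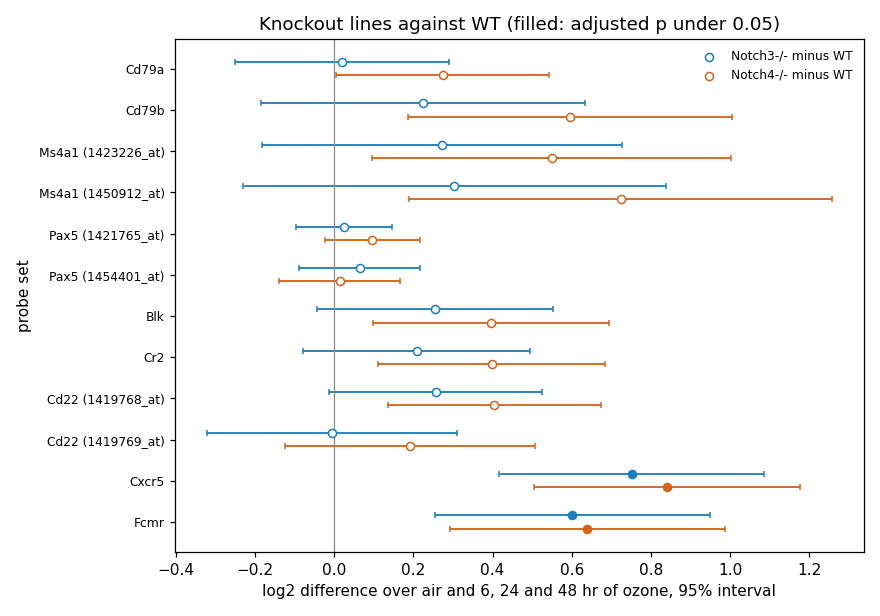
Difference of Notch3-/- (blue) and Notch4-/- (orange) from WT mice over air and the 3 ozone exposures for the 12 probe sets (horizontal axis, log2, with 95% intervals; filled points have adjusted p under 0.05). Cxcr5 and Fcmr are filled in both lines, and the Pax5 intervals are the narrowest and include 0.

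Because the members varied together, Cxcr5 and Fcmr were also set against the mean of the other 7 genes in the same mouse, an analysis added after their genotype differences were seen. Each probe set is centred on its own median, so the sign of such a gap has no meaning and it can only be compared between mice. Cxcr5 minus that mean lay between -0.70 and -0.15 in the 12 WT mice (median -0.47), between -0.15 and 0.44 in Notch3-/- mice (median 0.17) and between -0.52 and 0.58 in Notch4-/- mice (median -0.03). Fcmr minus the same mean had medians of -0.26, 0.15 and 0.02. The WT and Notch3-/- ranges of the Cxcr5 gap thus met at -0.15, and WT and Notch4-/- mice overlapped. With that mean as a covariate in the fit, the Cxcr5 difference was 0.58 (SE 0.09, adjusted p = 4.5e-05) in Notch3-/- and 0.44 (SE 0.10, adjusted p = 0.0058) in Notch4-/- mice. The Fcmr difference was 0.41 (SE 0.07, adjusted p = 0.0002) in Notch3-/- mice and 0.19 (SE 0.08, adjusted p = 0.193) in Notch4-/- mice, where it no longer passed.

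**Figure D5:**
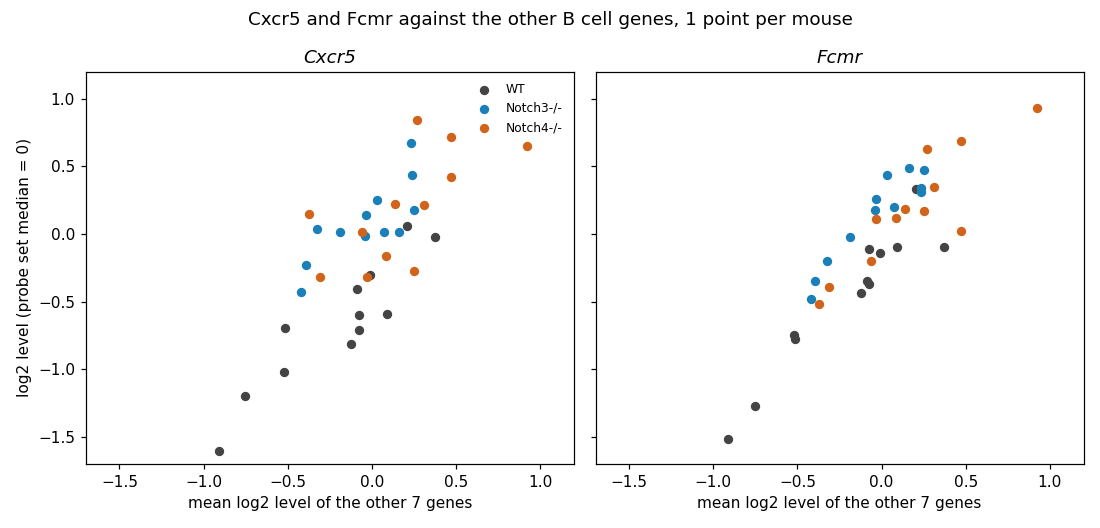
Level of Cxcr5 (left) and Fcmr (right) in each mouse (vertical axis, log2) against the mean level of the other 7 B cell genes in the same mouse (horizontal axis, log2). Each axis is centred on its own medians, so position can be compared between mice only. The difference Cxcr5 minus the other genes has a median of -0.47 in WT, 0.17 in Notch3-/- and -0.03 in Notch4-/- mice.

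The response to ozone did not differ detectably between a knockout line and WT for any member. None of the 72 tests passed, with adjusted p from 0.81 upward and 1 unadjusted p under 0.05, for the second Pax5 probe set in Notch4-/- mice at 24 hr. Of all probe sets 0.00888%, 0.00444% and 0.00222% passed in Notch3-/- mice at 6, 24 and 48 hr, and 0%, 0% and 0.00222% in Notch4-/- mice. The largest value was for the second Ms4a1 probe set in Notch4-/- mice at 6 hr, at 1.25 (SE 0.74, 95% interval -0.26 to 2.77). In the 9 added comparisons of genotypes at single ozone times, 0 of 108 tests passed and 16 had an unadjusted p under 0.05. Of these, 8 were for Notch4-/- against WT at 6 hr, where 3710 of all 45037 probe sets had such a p. Of all probe sets 0.921%, 1.28% and 1.07% passed at 6, 24 and 48 hr for Notch3-/- against WT, 0.642%, 0.764% and 0.471% for Notch4-/- against WT and 0.206%, 0.38% and 0.311% between the knockout lines.

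Some other B cell surface genes were higher in the knockout lines. Of 19 measured, 4 passed as higher in Notch3-/- mice (median of the list 0.22) and 6 in Notch4-/- mice (median 0.27), where 3.28% and 2.87% of all probe sets did, and 0 passed as lower in either. Fcer2a, the CD23 gene, was higher by 0.77 (SE 0.15, adjusted p = 0.0012) in Notch4-/- mice and by 0.52 (SE 0.15, adjusted p = 0.036) in Notch3-/- mice, the second of which passed in 24 of 36 runs with 1 array left out. Ly86, which encodes the partner of the receptor CD180, was higher by 0.57 (SE 0.11, adjusted p = 0.00058) in Notch3-/- and 0.48 (SE 0.11, adjusted p = 0.0039) in Notch4-/- mice. Cd24a was higher by 0.40 and 0.36, and Ms4a4c by 1.001 and 0.81. These 3 genes are also expressed by other leukocytes or epithelium. Tnfrsf13c (0.58, SE 0.17, adjusted p = 0.039) and Ly6d (0.65, SE 0.19, adjusted p = 0.043) passed in Notch4-/- mice, and in 24 and 21 of 36 runs with 1 array left out.

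Fcer2a was -0.37, -0.50 and -0.43 in WT mice after air, -0.09, 0.03 and 0.26 in Notch3-/- mice and -0.22, -0.17 and 1.14 in Notch4-/- mice. Both knockout lines lay above WT without overlap after air, as did 8.76% of all probe sets for Notch3-/- and 4.11% for Notch4-/- mice. Of the genes most like the members, Fcrla was 0.66 and Gimap7 0.50 above WT in Notch4-/- mice. They were picked for following the members over the same mice, so these values add no independent evidence.

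Partners, factors and antibody genes gave fewer calls. Of all probe sets 5.68% passed for Notch3-/- against WT and 5.76% for Notch4-/-, so 1 call among 16 or 12 genes is near those shares. Of 16 partners of the receptor 1, the phospholipase Plcg2, was higher in Notch3-/- mice (0.34, SE 0.07, adjusted p = 0.0009), and 0 passed in Notch4-/- mice. Of 12 transcription factors 0 passed in Notch3-/- mice and 1, Foxo1 (-0.31), was lower in Notch4-/- mice, a call that held in 19 of 36 runs with 1 array left out. Of 10 plasma cell genes 1, Sdc1 (-0.15), was lower in Notch3-/- mice, which held in 12 of 36. Of 7 immunoglobulin genes 0 passed in Notch3-/- mice, and 1, Igha, the constant region of IgA, was lower in Notch4-/- mice by 1.31 (SE 0.24, adjusted p = 0.0006). Igha lay between 0.03 and 2.38 in the 12 WT mice and between -1.25 and 0.13 in the 12 Notch4-/- mice. Ighm, the IgM heavy chain, was 0.03 (SE 0.08) in Notch3-/- and -0.01 (SE 0.08) in Notch4-/- mice on the probe set used.

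Cxcl13 was higher in Notch4-/- than in WT mice by 1.10 (SE 0.18, adjusted p = 0.00017) over all exposures and by 0.38 (SE 0.18, adjusted p = 0.298) in Notch3-/- mice. It was the only gene of 8 in the stroma and survival list to pass against WT. Of all probe sets 5.68% passed for Notch3-/- and 5.76% for Notch4-/- mice. Among 7 follicular dendritic cell genes, Fcer2a passed as higher in Notch3-/- mice, and Fcer2a and Cxcl13 passed as higher and Mfge8 (-0.21) as lower in Notch4-/- mice.

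Some markers of other leukocytes differed between the genotypes as well. Of all probe sets 5.68% passed for Notch3-/- against WT (3.28% higher) and 5.76% for Notch4-/- (2.87% higher). Of 10 neutrophil genes 7 were higher in each line, with S100a8 up by 2.09 in Notch3-/- and 1.32 in Notch4-/- mice, and the mean of that list per mouse lay between -0.85 and -0.18 in WT, -0.12 and 1.46 in Notch3-/- and -0.14 and 0.70 in Notch4-/- mice. Of 8 NK genes 3 were higher in each line, Klrd1, Klre1 and Klrk1, with list means of -0.58 to 0.17 in WT, -0.34 to 0.36 in Notch3-/- and -0.17 to 0.63 in Notch4-/- mice. Of 8 plasmacytoid dendritic cell genes 3 and 2 were higher, with means of -0.34 to 0.01, -0.07 to 0.29 and -0.13 to 0.28. Ly6d, 1 of the 2 in Notch4-/- mice, is also among the other B cell surface genes and was counted there. Of 17 T cell genes 0 passed in Notch3-/- mice and 3, Cd28, Il7r and Bcl11b, were lower in Notch4-/- mice, with means of -0.32 to 0.33, -0.29 to 0.27 and -0.31 to 0.19. None of the 17 was higher in either line. Of 9 alveolar macrophage genes 1 was higher and 2 lower in Notch3-/- and 0 and 2 in Notch4-/- mice, and none of 9 thymocyte or 8 skeletal muscle genes passed in either line. The skeletal muscle mean was 3.94 in Notch3-/- air replicate 3 and at most 1.57 in all other mice. Since values are centred, it cannot be read whether any marker was at background. The part of these other cells in the differences of Cxcr5 and Fcmr was not tested.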

How the data were processed

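Left-lung total RNA of 36 mice was measured on Affymetrix mouse expression arrays. The values the authors deposited are log2 levels that they obtained with GeneSpring GX by robust multiarray averaging. Each probe set of the deposited table is centred on its median over the arrays (largest absolute median 5e-07), which the methods do not describe, so brightness and detection cannot be read and no filter on dim probe sets could be made. All columns were assigned to mice from their labels. Array SDs lay between 0.164 and 0.426; the number of arrays and the spread between mice limit the precision. The 64 control probe sets were left out. Genes were named from the platform annotation (34945 of 45037 probe sets with 1 symbol, 34741 of them matched to RefSeq by gene ID). limma 3.58.1 in R 4.3.3 was fitted with 1 mean per group to all 45037 probe sets, in 24 planned comparisons and 9 added ones. P-values were adjusted by Benjamini-Hochberg within each comparison, with 0.05 as the threshold. The steps were tested on simulated data. The methods' ANOVA with Tukey's test, array weights, other scalings, a replicate block, leaving out arrays and gene means over probe sets were alternatives.

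The members and the 14 gene lists were chosen with earlier results of these data known, and the covariate and the comparisons at single ozone times after seeing the values. Named were all members, up to 4 genes of a list that passed in a comparison (of a list with none, up to 3 in list order), the 10 genes most like the members, and the Notch genes. For a list gene with several probe sets, the one with the plainest suffix and then the lowest number was used. Genes named among T cell, NK, plasmacytoid dendritic cell and neutrophil markers follow the same rule. Genes of the lists without a probe set of their own were not analysed here, and nor were 4 members' promoters.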

Additional observations from a re-analysis of the deposited data

How the results depend on the processing

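Within a genotype, 0 members passed for ozone against air in the main analysis, 2 with array weights (Cd79a and Cr2 in Notch4-/- mice at 6 hr) and 3 without Notch4-/- air replicates 1 and 2, which leaves 1 mouse there. Averaged over genotypes, that omission also gave 3 in place of 0. Over all exposures, 4 calls became 11 with it, 2 with adjustment over all comparisons together (Cxcr5 in both lines), and 2 to 10 with 1 array left out. The counts in air and for response differences were 0 under all alternatives run, the ANOVA with Tukey's test among them for air. Cxcr5 passed in both lines in every run. Fcmr was lost in both lines with adjustment over all comparisons (adjusted p = 0.0792 and 0.0556), and in Notch4-/- mice with only the arrays of the genotypes compared (0.0552) and with the other 7 genes as covariate. No direction turned. As means over a gene's probe sets, Bach2, Dapp1, Ikzf1 at 6 and 48 hr, Fcer2a in Notch3-/- mice, and Fcrla and Gimap7 in Notch4-/- mice did not pass. Without Notch4-/- air replicates 1 and 2, Ebf1 and Mfge8 at 48 hr and Sdc1 in Notch3-/- mice (adjusted p = 0.0541) did not. The cause of these changes was not tested.

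With the replicate number as a block, 6 calls were made over all exposures against 4 without it, and no other count of members changed. The labels do not say that the numbers pair the mice, and the arrays did not settle it. Between deviations of same-numbered arrays r ran from -0.51 to 0.62 (median 0.07, against -0.05 for different numbers), and 89 of 198 such pairs exceeded 0.1. Each array's r was also averaged over the arrays of other groups for each of the 3 replicate numbers. This mean was highest for the array's own number in 22 of 36 arrays.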
